A study of Mus musculus with 24 samples.

Results

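*Prlr*, *Hpd*, *Abcc3* and *Slc7a12* are 4 of the 27971 genes tested on the arrays of this series, and they were read by 5 of the 55681 probes. They were selected on their measured levels, as genes whose kidney expression is expected to be repressed by androgen and whose levels exceeded the control level in mgb-/- kidneys, to be read in each kidney beside *Acsm3*, a gene expressed more in male kidneys. The difference from control kidneys was thus among the values that chose them, and it is described below without a test. The tests given below concern the grades of hydronephrosis and other genes.

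RNA from 24 whole kidneys was hybridized, all from male mice killed late in the first month of life. Of these, 6 were control kidneys of the genotype mgb+/+ and 18 came from mgb-/- (megabladder) mice, which have a bladder without tone and hydronephrosis from before birth. The mgb-/- kidneys had been graded by ultrasound on the share of parenchyma preserved, 7 as mild, 5 as moderate and 6 as severe. Each kidney had its own array with a single dye, and no agent was given. Whether any mouse gave both of its kidneys is not given in the sources used here, so kidneys were treated as independent and the p-values measure the spread between kidneys. In whole-kidney RNA, fewer cells of a type and less RNA per cell cannot be told apart.

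The mouse kidney is one of the most sexually dimorphic organs outside the reproductive tract, and much of that dimorphism lies in the proximal tubule, where androgen raises some transcripts and lowers others. *Prlr* encodes the prolactin receptor, a cytokine receptor that signals through Jak2 and Stat5. *Hpd* encodes 4-hydroxyphenylpyruvate dioxygenase, an early enzyme of tyrosine breakdown. *Abcc3* encodes Mrp3, an ATP-driven pump that exports organic anions such as glucuronides and bile salts across the basolateral membrane, and *Slc7a12* encodes a transporter of the Slc7 amino acid carriers. *Acsm3* encodes a medium-chain acyl-CoA synthetase of mitochondria.

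Levels are log2 processed signals minus the log2 75th percentile of the array, so that 0 is the level of that percentile and 1 unit is a 2-fold step. They compare kidneys for a probe and not probes with each other. Between 56.6% and 71.5% of probes stood well above background on an array, no spot was saturated, and the 5 probes of the 4 genes were well above background on every array that measured them. The arrays lay on 3 slides, each with 2 control and 6 mgb-/- kidneys. The kidney marker *Umod* of the thick limb was present throughout, between 7.80 and 8.62 in mgb-/- kidneys and between 8.13 and 8.45 in controls. Other nephron markers varied more. *Calb1* lay between -2.99 and 1.89 in mgb-/- kidneys against -0.27 to 0.34 in controls, and *Slc12a3* between 0.79 and 3.91 against 2.76 to 3.06.

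The kidneys labelled moderate replicate 2 and severe replicate 6 stood apart from the other mgb-/- kidneys. Their *Acsm3* levels of 6.80 and 6.77 lay inside the control range of 6.05 to 7.00, and none of the 12 male-biased genes listed by the study lay below its lowest control in either kidney. At 2 genes of chromosome 16, picked after their values had been seen, both kidneys nevertheless stood above all controls. Genes chosen on these values are no test of the genotype label, and 2 genes of 1 chromosome may not be independent. *Ccdc50* was 1.08 and 0.58 in these kidneys against -1.14 to -0.52 in controls and 0.70 to 1.04 in the other 16 mgb-/- kidneys. *Cldn16* was 1.88 and 1.85 against 0.28 to 0.61 in controls. *Myocd*, read for the same purpose, did not separate the groups. It was -3.44 and -4.20 in these kidneys, inside the control range of -4.81 to -2.29. Results that rest on these 2 kidneys are given with and without them.

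Prolactin receptor mRNA was higher in mgb-/- kidneys of every grade. In control kidneys *Prlr* lay between 0.56 and 1.38, with a median of 1.07. In mild kidneys it lay between 2.62 and 5.02, with a median of 4.80, and did not overlap with controls. The moderate kidneys had 3.24, 0.77, 4.50, 3.16 and 2.56, so that only replicate 2 fell among the controls. The severe kidneys with a value had 4.92, 4.90, 4.62, 2.60 and 0.70, the last being replicate 6. Severe replicate 4 had no value because its spot was marked as an outlier by the scanner software.

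The mean of *Prlr* was 3.74 ± 1.46 (SD, n = 17) for mgb-/- kidneys against 1.02 ± 0.29 (SD, n = 6) for controls, a log2 difference of 2.71 (SE 0.58) or 6.56-fold. Above the highest control lay 15 of the 17 mgb-/- kidneys, and 3.21% of all genes tested had at least 15 there. The second *Prlr* probe followed the first with a Pearson r of 0.995 over 23 kidneys, as a description of the same RNA read at different places. It gave a log2 difference of 2.58 with 16 of 18 kidneys above the highest control. On that probe severe replicate 4 had 0.62, above the control range of -1.62 to -0.43.

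*Hpd* was the gene with the largest measured rise of the 4. Its level lay between 0.21 and 0.69 in control kidneys, a 1.39-fold span, and between 2.65 and 5.62 in mild kidneys, with medians of 0.31 and 4.78. The moderate kidneys had 5.56, 0.26, 3.72, 5.60 and 2.84. The severe kidneys lay between 0.61 and 5.00, with a median of 3.48. Here the lowest kidneys were severe replicate 5 at 0.95 and severe replicate 6 at 0.61, together with moderate replicate 2. The mean was 3.80 ± 1.76 (SD, n = 18) for mgb-/- kidneys against 0.35 ± 0.17 (SD, n = 6) for controls, a log2 difference of 3.45 (SE 0.70) or 10.9-fold. Within the mgb-/- kidneys the highest and the lowest *Hpd* level were 41.0-fold apart.

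The exporter gene *Abcc3* lay between -0.67 and 0.62 in control kidneys, with a median of -0.26. In mild kidneys it lay between 0.64 and 3.67, with a median of 3.37, and mild replicate 4 at 0.64 was only just above the highest control. The moderate kidneys had 3.00, 0.42, 3.26, 2.80 and 0.14, so replicates 2 and 5 both fell in the control range. In severe kidneys it lay between 0.77 and 4.10, with a median of 3.36, and all 6 exceeded the highest control. The mean was 2.72 ± 1.27 (SD, n = 18) for mgb-/- kidneys against -0.23 ± 0.47 (SD, n = 6) for controls, a log2 difference of 2.95 (SE 0.52) or 7.73-fold.

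*Slc7a12* had the smallest rise and, in mild kidneys, the tightest values. It lay between 0.90 and 1.79 in control kidneys, with a median of 1.27, and between 3.32 and 3.83 in mild kidneys, with a median of 3.52. The moderate kidneys had 2.83, 0.66, 3.38, 3.27 and 3.61, of which replicate 2 lay below every control. In severe kidneys it lay between 1.08 and 3.80, with a median of 3.40. The mean was 1.34 ± 0.38 (SD, n = 6) in control, 3.55 ± 0.19 (SD, n = 7) in mild and 3.13 ± 0.91 (SD, n = 18) in all mgb-/- kidneys. The log2 difference between mgb-/- and control kidneys was 1.78 (SE 0.37) or 3.44-fold.

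*Hpd*, *Abcc3* and *Slc7a12* each exceeded the highest control in 16 of 18 mgb-/- kidneys, and 1.88% of all genes tested did so in at least 16. With an adjusted p under 0.05 and a 2-fold minimum, 510 genes (1.82%) were called higher and 353 (1.26%) lower in mgb-/- kidneys. The 4 genes are among the former, which follows from how they were chosen. Without moderate replicate 2 and severe replicate 6 the log2 differences were 3.11 for *Prlr*, 3.87 for *Hpd*, 3.22 for *Abcc3* and 2.06 for *Slc7a12*. Within the 3 slides they ran from 2.06 to 3.20 for *Prlr*, from 2.23 to 4.42 for *Hpd*, from 2.00 to 3.48 for *Abcc3* and from 1.07 to 2.25 for *Slc7a12*, and each gene was lowest on slide 2.

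**Figure D1:**
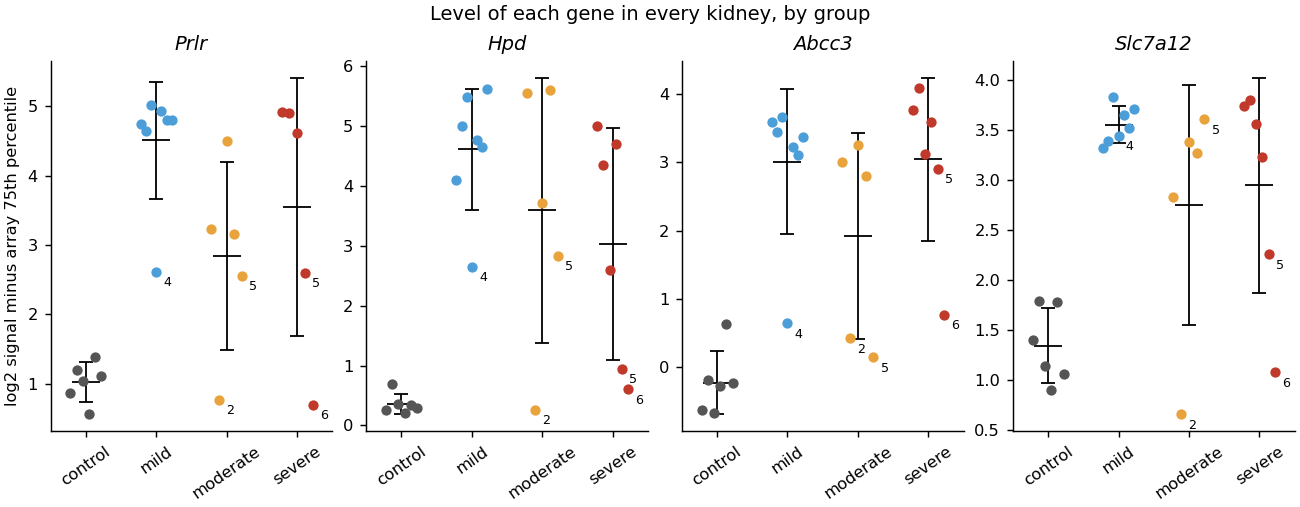
Level of *Prlr*, *Hpd*, *Abcc3* and *Slc7a12* in each kidney (points) by group, as log2 signal minus the array's 75th percentile, each panel on its own axis, with the group mean and SD (bars) and with mild 4, moderate 2 and 5, and severe 5 and 6 numbered where they stand apart. Mild kidneys lie above all controls for each gene, while moderate 2 and severe 6 sit at or near the control level.

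Promoter sequence is shown for the receptor and the tyrosine enzyme, the members for which RefSeq windows were at hand. The windows hold the 250 bases before an annotated start on GRCm38.p6, in the direction of transcription. *Prlr* has 3 annotated starts, and the array does not tell which was used. The middle start was the only *Prlr* start whose window held any of the 5 motifs searched on both strands, and its 2 matches are in capitals.

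Prlr, chr15:10223656-10223905, plus strand: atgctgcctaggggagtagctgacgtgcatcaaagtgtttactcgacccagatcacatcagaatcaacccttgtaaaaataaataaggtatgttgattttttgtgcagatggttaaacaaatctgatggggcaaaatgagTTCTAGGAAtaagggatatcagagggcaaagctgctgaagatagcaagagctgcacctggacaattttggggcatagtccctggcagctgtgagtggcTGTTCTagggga

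Hpd, chr5:123182724-123182973, minus strand: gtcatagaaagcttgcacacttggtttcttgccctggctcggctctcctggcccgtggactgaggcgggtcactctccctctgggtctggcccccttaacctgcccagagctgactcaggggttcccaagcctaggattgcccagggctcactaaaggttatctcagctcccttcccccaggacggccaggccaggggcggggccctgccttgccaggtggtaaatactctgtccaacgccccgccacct

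The capitals TGTTCT, from -12 to -7, are the reverse complement of AGAACA, a single arm of the sites bound by the glucocorticoid receptor and related steroid receptors, which 16.1% of all 32851 mouse windows held. The capitals TTCTAGGAA, from -110 to -102, match TTCNNNGAA, the core of Stat5 sites, which 7.02% of windows held. The other motifs were CAAAGTCCA, an Hnf4 site (0.384% of windows), AGGTCA repeated after 1 base, the nuclear receptor site DR1 (0.0335%), and the Hnf1 palindrome, GTTAAT and ATTAAC around 1 base (0.00913%), and the matches do not overlap each other. None of the 5 was found in the windows of *Hpd*, *Acsm3* or the other *Prlr* starts. These are matches of letters and not measured sites.

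The 4 genes did not move as a single block across kidneys. Among the 18 mgb-/- kidneys, 15 had every measured gene of the 4 above its highest control. Moderate replicate 2 had none, severe replicate 6 had *Abcc3* alone, at 0.77 against a highest control of 0.62, and moderate replicate 5 had all but *Abcc3*. *Acsm3* lay below its lowest control in 16 of the 18.

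Mild replicate 4 and moderate replicate 5 showed the sharpest split between genes. Their *Acsm3* levels of 4.70 and 4.92 lay between the controls and the other mgb-/- kidneys that had lost it. *Slc7a12* was at its full mgb-/- level in both, 2.10 and 2.26 above the control mean, within the range of 1.97 to 2.49 of the other mild kidneys. *Abcc3* was 0.87 and 0.37 above the control mean, where control replicate 5 stood at 0.85. *Prlr*, at 1.59 and 1.53 above the control mean, and *Hpd*, at 2.30 and 2.48, were intermediate. *Slc7a13*, an amino acid carrier of the same family that is male-biased, was 0.31 and 0.04 below its control mean in these kidneys, while it was 2.12 or more below it in the other mild kidneys.

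**Figure D2:**
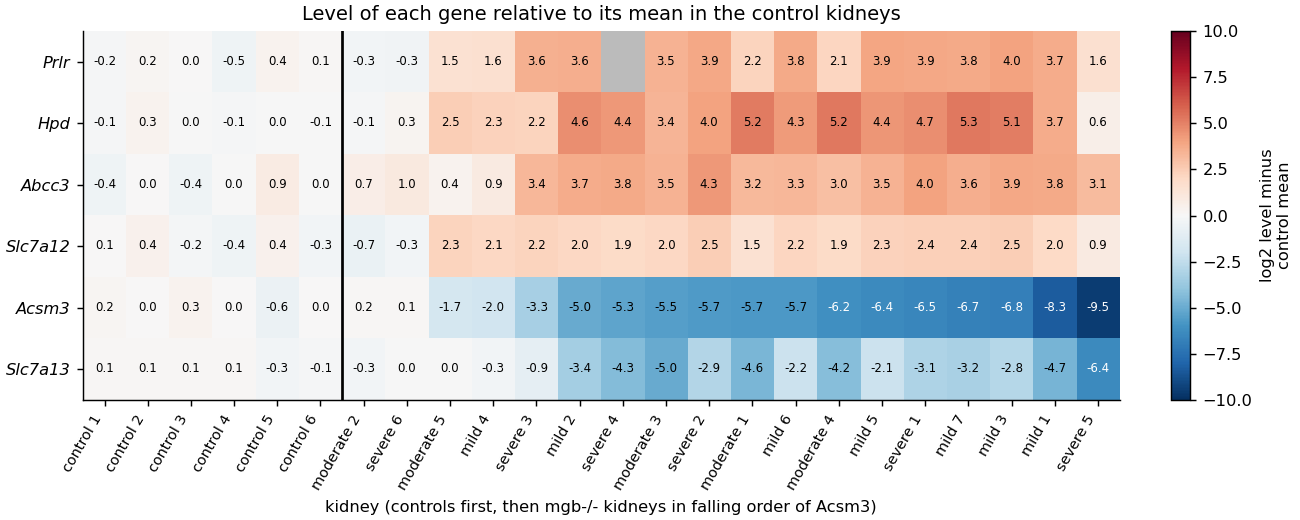
Log2 level minus the control mean (colour and printed value) for *Prlr*, *Hpd*, *Abcc3*, *Slc7a12*, *Acsm3* and *Slc7a13*, with control kidneys left of the black line and mgb-/- kidneys ordered by falling *Acsm3*; grey marks the missing *Prlr* value. Moderate 5 and mild 4 combine a full *Slc7a12* rise with *Abcc3* near the control level. Severe 5 combines an *Abcc3* rise of 3.14 with low *Hpd*.

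Severe replicate 5 showed the opposite split. Its *Acsm3* level of -2.86 was the lowest of all kidneys. *Abcc3* was 3.14 above the control mean, against 3.36 to 4.33 in severe replicates 1 to 4. *Hpd* was only 0.59 above its control mean, *Slc7a12* 0.91 and *Prlr* 1.57. In this kidney all 10 proximal tubule markers lay below their lowest control, with a median of 1.69 log2 units below the control mean, and their summed level of 488 compares with 1556 to 1936 in controls. *Slc34a1*, the apical phosphate transporter, was 5.86 against 7.93 to 8.31 in controls. The part of these changes in the levels of the 4 genes was not tested.

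The moderate kidneys replicate 1 and replicate 4 gave another combination. *Hpd* was 5.21 and 5.24 above the control mean, among the highest rises of all kidneys, while *Prlr* was 2.21 and 2.14 above it. In moderate replicate 1, and in mild replicate 4, adrenal markers were also high. The summed level of *Cyp11a1*, *Cyp11b1*, *Cyp21a1* and *Star* reached 183 and 191 there, against 0.14 to 0.36 in controls and at most 0.61 in severe kidneys. Sums above every control were also found in mild replicates 2, 5, 6 and 7, at 3.55, 1.74, 4.11 and 0.90, and in moderate replicate 3, at 3.503. Severe replicates 1 and 4, at 0.369 and 0.608, were slightly above the highest control, at 0.363. Moderate replicates 4 and 5 had sums of 0.20 and 0.30. The part of adrenal tissue in the levels of the 4 genes was not tested.

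Read against *Acsm3* over the 18 mgb-/- kidneys, each gene was lower where *Acsm3* was higher. Pearson's r was -0.68 for *Prlr* over 17 kidneys, -0.57 for *Hpd*, -0.82 for *Abcc3* and -0.52 for *Slc7a12*, and Spearman's rho was -0.59, -0.53, -0.53 and -0.31. The relation was part of the choice of the genes, so these values carry no test. They were sensitive to 3 kidneys. Without severe replicate 5, the kidney with the lowest *Acsm3* and low proximal tubule markers, r was -0.86 for *Prlr*, -0.89 for *Hpd*, -0.88 for *Abcc3* and -0.71 for *Slc7a12*. The opposite held for moderate replicate 2 and severe replicate 6, which are also the 2 kidneys farthest from the median of *Acsm3*. Without these 2 r was -0.30 for *Prlr*, -0.16 for *Hpd* and 0.39 for *Slc7a12*, and *Abcc3* alone stayed strongly negative at -0.69. Within slides 1, 2 and 3, with at most 6 mgb-/- kidneys each, r was -0.71, -0.44 and -0.99 for *Prlr*, -0.60, -0.22 and -0.98 for *Hpd*, -0.84, -0.73 and -0.98 for *Abcc3*, and 0.04, -0.29 and -0.999 for *Slc7a12*. Moderate replicate 2 lay on slide 2 and severe replicate 6 on slide 3.

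**Figure D3:**
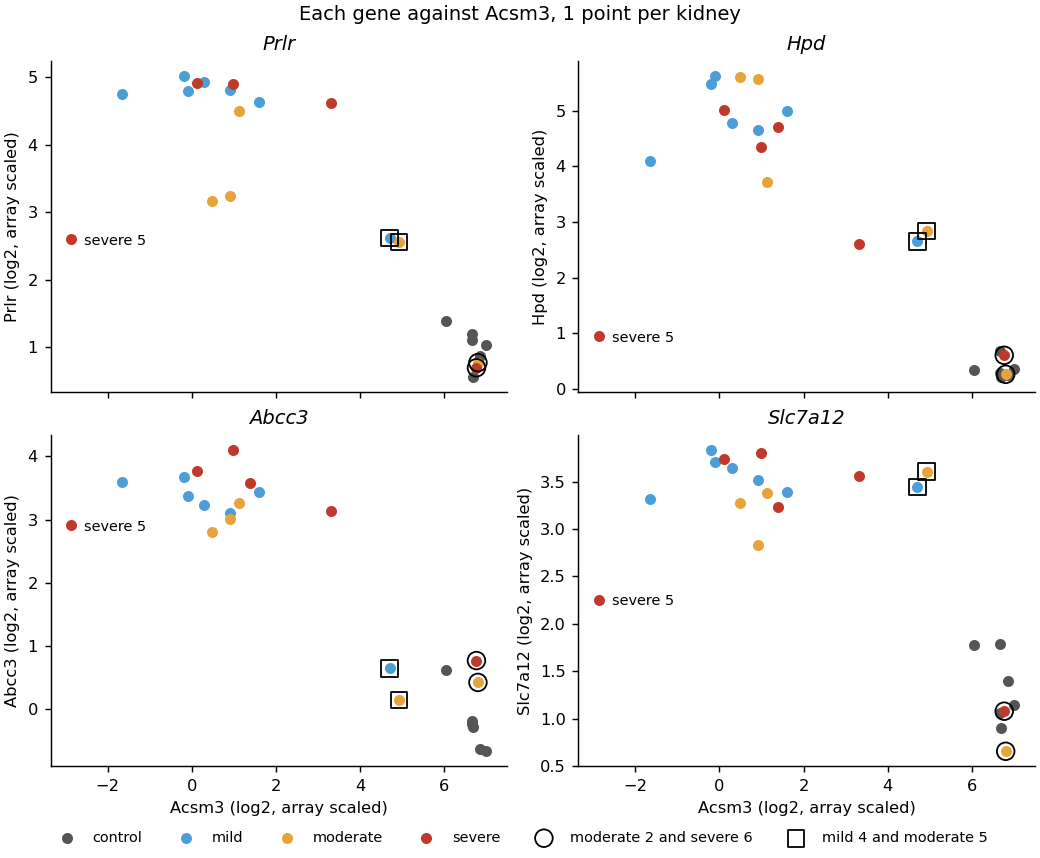
Level of each gene (vertical) against *Acsm3* (horizontal) in the same kidney, both as array-scaled log2 signal, 1 point per kidney coloured by group. Circles mark moderate 2 and severe 6 among the controls, squares mark mild 4 and moderate 5, where *Abcc3* is low and *Slc7a12* high, and severe 5 lies at the lowest *Acsm3*.

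The 4 genes were also compared with each other over the mgb-/- kidneys, in 6 pairs. Since each was chosen for its level by group and beside *Acsm3*, these values are a description without a test. With *Prlr*, the Pearson r was 0.86 for *Slc7a12* (rho = 0.79), 0.86 for *Abcc3* (rho = 0.85) and 0.77 for *Hpd* (rho = 0.62), each over 17 kidneys. *Hpd* went with *Slc7a12* at 0.77 (rho = 0.43) and with *Abcc3* at 0.69 (rho = 0.48) over 18 kidneys. The loosest pair by r was *Abcc3* and *Slc7a12*, at 0.58 (rho = 0.55).

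Each r was lower without moderate replicate 2 and severe replicate 6. The r of *Prlr* was then 0.78 with *Abcc3*, 0.61 with *Slc7a12* and 0.52 with *Hpd*. That of *Hpd* was 0.47 with *Abcc3* and 0.45 with *Slc7a12*, and that of *Abcc3* with *Slc7a12* was 0.07 (rho = 0.45). Leaving out the 2 kidneys farthest from the median of the gene named first gave the same kidneys for *Prlr* and *Hpd*. For *Abcc3* these were moderate replicates 2 and 5, without which its r with *Slc7a12* was 0.62 (rho = 0.61). Within slides, with 5 or 6 kidneys each, r ran from -0.24 to 0.84 on slide 1, from 0.45 to 0.86 on slide 2 and from 0.968 to 0.998 on slide 3, which holds severe replicate 6.

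The grades of hydronephrosis were compared to ask whether the 4 genes followed the loss of parenchyma. They did not pass the test in any of the 12 comparisons. The genes were chosen with their levels by group known, so these p-values are not an independent test. The greatest differences were lower means in the more affected group. *Hpd* averaged 4.61 ± 1.00 (SD, n = 7) in mild and 3.04 ± 1.94 (SD, n = 6) in severe kidneys, a difference of -1.58 (SE 0.80, 95% interval -3.22 to 0.07, limma adjusted p = 0.47). *Prlr* averaged 4.51 ± 0.84 (SD, n = 7) in mild and 2.84 ± 1.36 (SD, n = 5) in moderate kidneys, a difference of -1.66 (SE 0.65, 95% interval -3.03 to -0.30) with an unadjusted p of 0.0188 and a limma adjusted p of 0.623. The interval of *Prlr* is not adjusted for the 27971 genes.

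*Abcc3* had nearly equal means in mild and severe kidneys, 3.01 ± 1.06 (SD, n = 7) and 3.04 ± 1.20 (SD, n = 6). Their difference of 0.03 had a 95% interval from -1.18 to 1.25, which allows a change of more than 2-fold either way. For *Slc7a12* the difference between severe and mild kidneys was -0.61 (SE 0.42, 95% interval -1.48 to 0.27, limma adjusted p = 0.618), and its SD was 0.19 in mild against 1.20 in moderate and 1.08 in severe kidneys. Between severe and moderate kidneys the differences were 0.70 for *Prlr*, -0.56 for *Hpd*, 1.12 for *Abcc3* and 0.19 for *Slc7a12*, with limma adjusted p from 0.533 to 0.889.

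Across all genes 129 (0.461%) were called between severe and mild kidneys, none between moderate and mild, and 2 (0.00715%) between severe and moderate. At an unadjusted p under 0.05 with a 2-fold minimum, 417 genes (1.49%) differed between moderate and mild kidneys and 603 (2.16%) between severe and moderate. Without moderate replicate 2 and severe replicate 6 the difference of *Hpd* between severe and mild kidneys was -1.09 and that of *Prlr* between moderate and mild kidneys -1.15, with limma adjusted p of 0.411 and 0.717. Within slides 1, 2 and 3 the *Hpd* difference between severe and mild kidneys was 0.23, -3.11 and -1.63, and the *Prlr* difference between moderate and mild kidneys was -0.86, -3.12 and -0.42, from 1 to 3 kidneys a group.

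**Figure D4:**
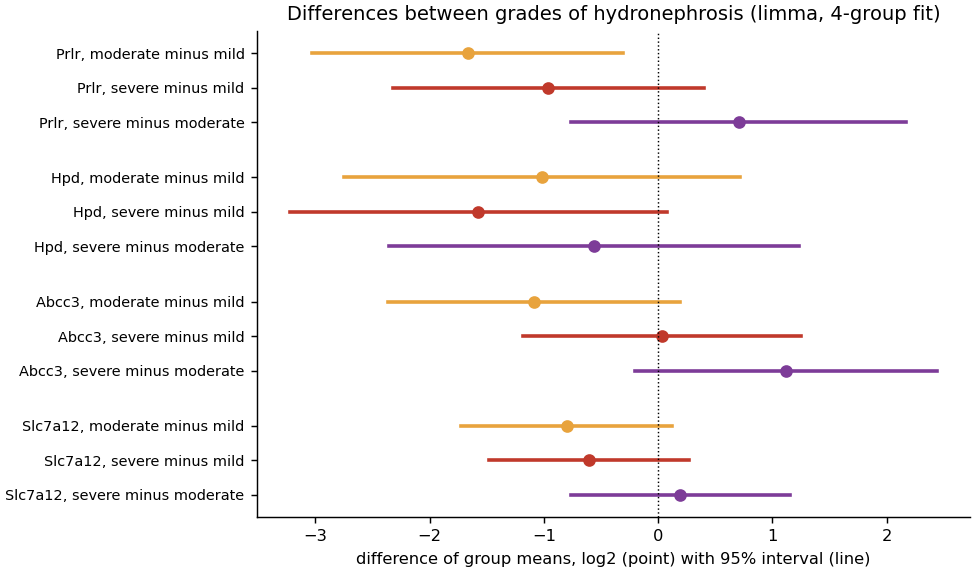
Difference between group means on the log2 scale (points) with its unadjusted 95% interval from limma (lines) for each gene and each pair of grades, the dotted line marking no difference. All intervals but that of *Prlr* in moderate against mild kidneys include 0, and no comparison passed after adjustment over all genes.

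For each of the 4 genes, the 5 genes with the most similar pattern over the mgb-/- kidneys were listed by Pearson's r, as a description that rests on 17 or 18 kidneys. None of the 4 genes stood among the 5 nearest of another. *Prlr* ranked 11 for *Slc7a12* and 55 for *Abcc3*, and *Hpd* ranked 462 for *Prlr*. The most distant ranks were 903 for *Hpd* and 2011 for *Slc7a12*, both for *Abcc3*, and 1103 for *Abcc3* for *Slc7a12*. Nearest to *Prlr* were *Hsd17b14* (0.97), a hydroxysteroid dehydrogenase, *Rdh19* (0.97), a retinol dehydrogenase, *Kcnk1* (0.96), a potassium channel, a transcript without a gene name (0.96) and *Prss12* (0.95), a secreted serine protease. Without moderate replicate 2 and severe replicate 6 these values were still between 0.91 and 0.97.

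Nearest to *Hpd* were the clone AK143198 (0.96), *Angptl4* (0.96), a secreted inhibitor of lipoprotein lipase, *Cyp4a14* (0.96), a fatty acid hydroxylase, an unnamed transcript (0.95) and *Etnppl* (0.93), an ethanolamine-phosphate lyase. *Cyp4a14* was higher in mgb-/- kidneys by 2.79 (SE 0.44, limma adjusted p = 0.000756), while the difference of *Angptl4* was 0.32 (SE 0.33, limma adjusted p = 0.569). Nearest to *Abcc3* were *Setd4* (0.97), *Serpina6* (0.96), which encodes corticosteroid-binding globulin, *Tmc5* (0.95), an unnamed transcript (0.95) and *Mro* (0.95). *Serpina6* was higher by 4.31 and *Mro* by 3.36.

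Nearest to *Slc7a12* were *Tsc22d3* (0.95), a glucocorticoid-induced leucine zipper gene, *Rad51ap2* (0.94), an unnamed transcript (0.93), *Per2* (0.90) of the circadian clock and *Sall1* (0.89), a transcription factor of the developing nephron. Of the named ones, *Rad51ap2* was higher in mgb-/- kidneys by 2.44 (SE 0.48, limma adjusted p = 0.00353). *Tsc22d3* differed by 0.69 (adjusted p = 0.144), *Per2* by -0.04 (adjusted p = 0.962) and *Sall1* by 0.23 (adjusted p = 0.48). Without moderate replicate 2 and severe replicate 6 the r of *Tsc22d3* was 0.75 and that of the unnamed transcript 0.82. That of *Per2* was then 0.64 and that of *Sall1* 0.60, while *Rad51ap2* stayed at 0.90.

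The other genes of the pathways and families of the 4 were read from lists. In prolactin and cytokine signalling, 1 of 14 genes tested passed an adjusted p of 0.05 in the comparison of mgb-/- with control kidneys, against 13.3% of all genes. This was *Stat3*, higher by 0.90 (SE 0.20, limma adjusted p = 0.00594). The direct relays of the receptor did not pass, and differed for *Jak2* by 0.05, *Stat5a* by 0.02 and *Stat5b* by -0.07, with adjusted p from 0.696 to 0.933. Its feedback genes *Cish*, *Socs1* and *Socs2* differed by 0.15, -0.15 and -0.56, with adjusted p of 0.788, 0.835 and 0.122. *Socs3*, of the same family, had the largest difference in the list, 1.59 (SE 0.57, adjusted p = 0.0654), and each of the 18 mgb-/- kidneys exceeded its control mean. The median over the 14 was -0.02 against 0.01 over all genes. *Prl* itself was not on a probe that passed the filter.

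Of the 12 other genes of phenylalanine and tyrosine breakdown, 8 had lower and 4 higher means in mgb-/- kidneys, and the median was -0.27. *Pcbd2*, which recycles the cofactor of phenylalanine hydroxylase, was lower, with a difference of -0.44 (SE 0.10, limma adjusted p = 0.00979) and was the only gene that passed, where 13.3% of all genes did. The enzyme before Hpd, *Tat*, differed by 0.62 (SE 0.30, adjusted p = 0.173). The enzymes after it, *Hgd*, *Gstz1* and *Fah*, differed by -0.54, -0.23 and -0.31, with adjusted p from 0.168 to 0.453. *Hpdl*, the paralog of *Hpd*, differed by 0.31 (adjusted p = 0.162).

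Among the 9 other Abcc genes tested, 3 passed an adjusted p of 0.05, each below 2-fold, where 13.3% of all genes passed. These were *Abcc1*, higher by 0.58 (SE 0.14, limma adjusted p = 0.0117), *Abcc5*, higher by 0.31 (adjusted p = 0.0344), and *Abcc9*, a potassium channel subunit, higher by 0.61 (adjusted p = 0.0169). The apical exporters *Abcc2* and *Abcc4* differed by -0.39 and 0.35 (adjusted p = 0.228 and 0.164). Of 9 further genes of anion and bile acid export and its control, 3 passed. *Abcb1b*, a multidrug pump, was higher by 2.07 (SE 0.51, adjusted p = 0.0114). *Slc51a*, a subunit of the basolateral bile acid carrier, was lower, with a difference of -1.15 (SE 0.30, adjusted p = 0.0146), and *Nr1i2*, the xenobiotic receptor Pxr, was higher by 0.57 with an adjusted p of 0.0495.

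Of 12 genes of the Slc7 carriers and their Slc3 partners, 3 passed an adjusted p of 0.05, where 13.3% of all genes passed. The arginine carriers *Slc7a1* and *Slc7a6* were higher by 0.75 (adjusted p = 0.0476) and 0.82 (adjusted p = 0.0408). *Slc7a13* was lower, with a difference of -2.81 (SE 0.76, limma adjusted p = 0.0186), below the control mean in 18 of 18 mgb-/- kidneys, so that it and *Slc7a12* moved in opposite directions. It belongs to the male-biased genes that the study listed from these same kidneys, all 12 of which were called lower, so their direction is not independent evidence. The same holds for *Gsta2*, *Bhmt* and *Serpina6*, female-biased in that list, which were called higher.

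**Figure D5:**
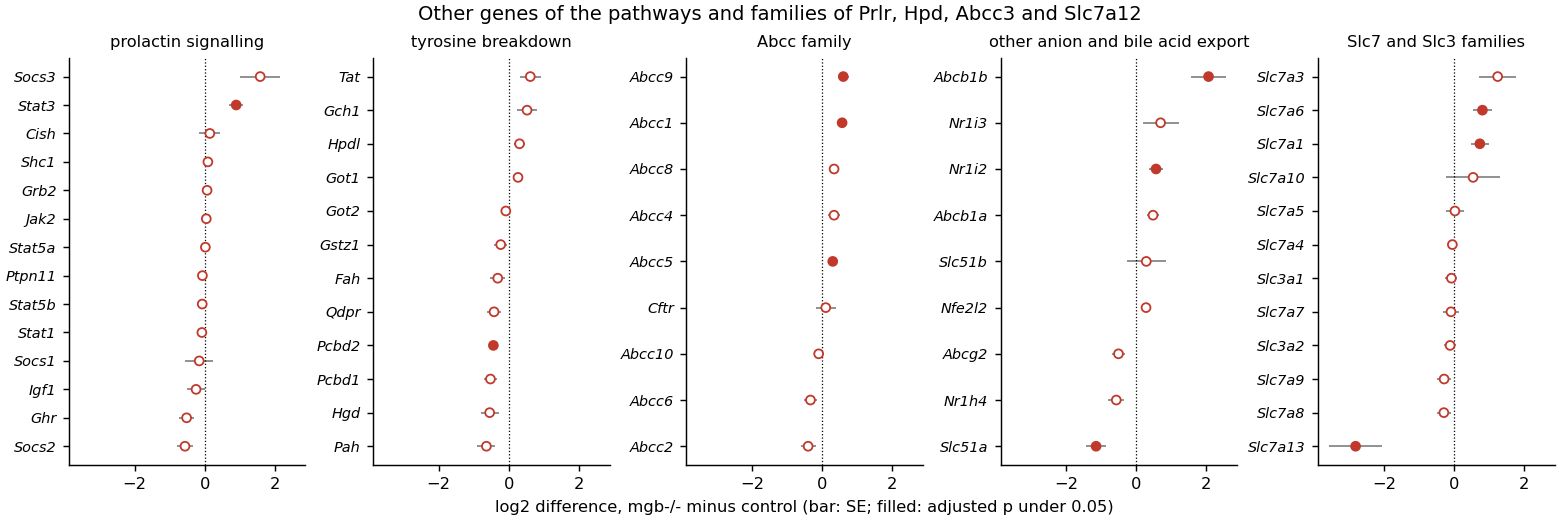
Log2 difference between mgb-/- and control kidneys (points, with SE as bars) for other genes of prolactin signalling, tyrosine breakdown, the Abcc family, anion and bile acid export and the Slc7 and Slc3 families, filled where the limma adjusted p was under 0.05. Most genes lie within 1 unit of 0, with *Slc7a13* and *Slc51a* lower and *Abcb1b* higher. *Socs3* at 1.59 and *Slc7a3* at 1.26 also lie beyond 1 unit, but did not pass.

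Genes for oestrogen and glucocorticoid receptors were also read in the comparison of mgb-/- with control kidneys. *Esr1* differed by 0.14 and *Esr2* by 0.02 (adjusted p = 0.773 and 0.969). *Gper1* was higher by 0.60 (limma adjusted p = 0.0406), and the glucocorticoid receptor gene *Nr3c1* was lower, with a difference of -0.38 (adjusted p = 0.0378). No hormone level was analysed here.

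Markers of other cells were read beside the 4 genes, since liver holds much *Hpd* and *Abcc3*. Of 8 hepatocyte markers 1 passed an adjusted p of 0.05, *Ahsg* (limma adjusted p = 0.0419), where 13.3% of all genes passed. All 8 had higher means in mgb-/- kidneys, with a median difference of 0.75. Their summed level was 5.81 to 17.8 in control, 6.44 to 37.0 in mild, 6.34 to 32.4 in moderate and 14.4 to 25.3 in severe kidneys. *Alb* lay between -3.25 and -2.54 in controls and between -7.90 and 2.67 in mgb-/- kidneys. Of 10 proximal tubule markers none passed, and their summed level was 1556 to 1936 in control, 1292 to 1651 in mild, 1186 to 2210 in moderate and 488 to 1789 in severe kidneys. Of 6 urothelial markers *Upk1b* and *Krt14* were called higher, where 1.82% of all genes were, and all 6 had higher means, with a median difference of 1.85. Their sums were 6.21 to 18.4 in control, 4.92 to 57.1 in mild, 13.7 to 52.9 in moderate and 70.7 to 231 in severe kidneys. None of the 5 leukocyte markers tested passed, with sums of 8.32 to 19.7 in control and 3.46 to 58.9 in mgb-/- kidneys. Neither did any of the 4 adrenal markers, though all 4 had higher means in mgb-/- kidneys, with a median difference of 2.66. The part of these cells in the levels of the 4 genes was not tested.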

How the data were processed

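The authors deposited the Agilent Feature Extraction 10.10 output of each 1-colour array. The intensity used, the processed signal, had its background subtracted within the array and was not scaled between arrays, and outlier and background flags come with it. The authors also deposited a table of normalized intensity, whose method is not given in the sources used here. After outlier spots were dropped and spots of a probe averaged, log2 processed signals were centred on each array's 75th percentile (control spots aside). Of 55681 probes, 38848 passed the filter of being above background, by the scanner's flag, on 5 of 24 arrays. RefSeq accessions (GRCm38.p6, used for names and promoters) named 26762 probes, and 28919 kept their accession. The brightest probe stood for a gene. limma 3.58.1 in R 4.3.3 fitted 2 groups (mgb-/-, control) or 4 groups, with Benjamini-Hochberg adjustment over 27971 genes. Genes were called from an adjusted p under 0.05 together with a change of 2-fold or more. Correlations used Python 3.11 and figures matplotlib 3.10.9. The steps were tested on simulated data. The number of arrays limits the precision.

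The genes, the lists of other genes and the tests were chosen with earlier results of these data known. The genes named are the 4 with all their probes, *Acsm3*, genes of 14 lists, and the 5 genes most like each of the 4 by Pearson's r. *Ccdc50*, *Cldn16* and *Myocd* were added after their values were seen. Alternatives were quantile normalization, median scaling, normexp with an offset of 50 (on the median signal, as no mean signal was at hand), the authors' table, other filters and thresholds, the mean of a gene's probes, the other probe, slide or replicate number as a block, array weights, fits on the compared groups or within a slide, and the omission of each kidney. Leaving out moderate replicate 2 and severe replicate 6 together was chosen after seeing the data.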

Additional observations from a re-analysis of the deposited data

Results flagged for a closer look

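The 4 genes and *Acsm3* in each of the 4 groups gave 20 sets of values. In 7 of them a kidney's gap to its nearest neighbour, divided by the range of the set, exceeded Dixon's 95% critical value. Chance flags about 1 in 20 independent sets, but these sets share kidneys and are not independent. Mild replicate 4 was low for *Prlr*, at 2.62 against 4.64 for the next kidney, and for *Abcc3*, at 0.64 against 3.11. Severe replicate 6 was low for *Abcc3*, at 0.77 against 2.91, and moderate replicate 2 was low for *Slc7a12*, at 0.66 against 2.83. Among controls, replicate 2 was high for *Hpd*, at 0.69 against 0.35. Control replicate 5 was high for *Abcc3*, at 0.62 against -0.19, and low for *Acsm3*, at 6.05 against 6.66.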

How the results depend on the processing

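The rises of the 4 genes over control kept their direction under every alternative run, and none of their 12 grade differences passed under any. With the replicate number as a block the rises were 2.57 for *Prlr*, 3.30 for *Hpd*, 2.88 for *Abcc3* and 1.71 for *Slc7a12*. The numbers do not pair kidneys (median r of the deviations 0.005 over 33 same-numbered pairs, and 6 of 24 kidneys closest to their own number), and the block gave 52 genes called between severe and mild and 7 between severe and moderate kidneys. Median scaling moved the median difference of all genes by -0.16.

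Between mgb-/- and control kidneys 863 genes were called, against 461 with normexp, 500 in the authors' table, 3731 with no fold minimum, 6, 0 and 13 within slides 1, 2 and 3, and 554 to 1080 with 1 kidney left out (554 without control replicate 3). Between severe and mild kidneys 129 were called, against 0 in a fit of those groups alone, 0 within each slide, and 60 to 173 with 1 kidney left out (60 without severe replicate 2, 67 without severe replicate 5, 75 without mild replicate 5). Between moderate and mild kidneys none was called, against 38 with array weights, 1 from those groups alone, 6 and 2 within slides 1 and 2, and 0 to 2 with 1 kidney left out. Between severe and moderate kidneys 2 were called, against 9 with normexp, 13 in the authors' table, 13 at an adjusted p under 0.1, 20 with array weights, 20 without moderate replicate 2 and severe replicate 6, 0 with median scaling, with slide as a block, from those groups alone and within each slide, and 0 to 98 with 1 kidney left out (98 without severe replicate 6, 60 without moderate replicate 3). In the gene lists 20 genes were called, against 31 with no fold minimum, 0 within each slide and 16 to 22 with 1 kidney left out.

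Grade differences changed sign within slides of 1 to 3 kidneys a group and with some single kidneys left out. Severe minus mild was 0.85 for *Prlr*, 0.23 for *Hpd* and 0.31 for *Slc7a12* on slide 1, and -0.32 and -0.68 for *Abcc3* on slides 2 and 3. Moderate minus mild was 1.46 for *Hpd* and 0.36 for *Abcc3* on slide 1. Severe minus moderate was 0.22 for *Hpd* on slide 2, and -1.69 for *Prlr*, -0.55 for *Abcc3* and -0.70 for *Slc7a12* on slide 3. With 1 kidney left out, *Abcc3* ran from -0.36 to 0.49 for severe minus mild, below 0 without mild replicate 4 or severe replicates 1, 2 or 4, and *Slc7a12* from -0.33 to 0.57 for severe minus moderate, below 0 without moderate replicate 2.

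The r with *Acsm3* on slide 3 was -0.994 for *Prlr*, -0.976 for *Hpd*, -0.977 for *Abcc3* and -0.999 for *Slc7a12*. Without moderate replicate 2 and severe replicate 6, the kidneys farthest from its median, it was -0.30, -0.16, -0.69 and 0.39, and for *Slc7a12* it was 0.044 on slide 1. With 1 kidney left out it ran from -0.86 to -0.57, -0.89 to -0.43, -0.88 to -0.76 and -0.71 to -0.30, each strongest without severe replicate 5. Under other settings r between the 4 genes included the values of *Prlr* and *Hpd* (0.22 on slide 1, 0.86 on slide 2, 0.52 without both kidneys), *Prlr* and *Abcc3* (0.81 on slide 2), *Prlr* and *Slc7a12* (0.58 and 0.85 on slides 1 and 2), *Hpd* and *Abcc3* (0.59, 0.53, and 0.47 without both), *Hpd* and *Slc7a12* (-0.24, 0.81, and 0.45 without both), and *Abcc3* and *Slc7a12* (0.20, 0.45, and 0.074 without both). With 1 kidney left out, *Abcc3* and *Slc7a12* ran from 0.42 to 0.76, with 0.42 without moderate replicate 2 and 0.48 without severe replicate 6. The cause of these changes was not tested.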
